A study of Mus musculus with 6 samples.

Results

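Non-homologous end joining and alternative end joining are the routes by which cells rejoin broken DNA ends without a homologous template. The 10 genes described here were chosen by name, as rows of the deposited count table whose symbol was Xrcc5, Xrcc6, Prkdc, Dclre1c, Xrcc4, Lig4, Nhej1, Paxx, Polq or Lig3. All 10 were found among the 50763 gene symbols of the table, and all 10 passed the filter on low counts that left 18860 genes for testing.

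In classical end joining the Ku heterodimer (XRCC5 and XRCC6) binds the broken end and recruits the kinase DNA-PKcs (encoded by Prkdc), which activates the nuclease Artemis (encoded by Dclre1c). The scaffold XRCC4 and its ligase LIG4 then seal the break, with XLF (encoded by Nhej1) and PAXX holding the ends together. In the alternative route the polymerase POLQ anneals short matching stretches and LIG3 seals the break. RIF1, acting with 53BP1, protects ends from resection and so favours classical end joining. In mouse meiosis the programmed breaks of early prophase are repaired by homologous recombination, and KU70, the product of Xrcc6, is known to be low in early spermatocytes.

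The samples were whole testes of mice at postnatal day 14, when the first wave of germ cells has entered meiotic prophase. One group of 3 was wild type (WT). In the other group of 3, labelled sKO, Rif1 was conditionally deleted in germ cells that had not yet entered meiosis. The promoter that drove the deletion, the deleted exons and the number of animals behind a sample are not stated in the labels, so p-values reflect the spread among these 6 samples alone, and that spread may be technical. Poly(A) RNA was sequenced to total counts of 15941672 to 18296594 per library, and counts of the 10 genes ran from 169 (Paxx in WT library 1) to 2976 (Lig3 in WT library 1). A count of 0 would allow at most 0.165 to 0.186 CPM (read counts relative to the size of the library, here TMM-scaled), far below every value given for the 10 genes, and this limit covers counting error only. In whole testis, fewer cells of a type and less RNA per cell cannot be told apart.

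Rif1 itself stood at 96.3, 83.5 and 129 CPM in WT libraries 1 to 3 and at 41.9, 46.3 and 49.1 CPM in sKO libraries 1 to 3. The groups did not overlap, and the log2 fold change was -1.17 (SE 0.15), past the threshold with edgeR (adjusted p = 0.0145). That call was lost in limma-voom (adjusted p = 0.0522) and without WT library 2 (edgeR adjusted p = 0.137), sKO library 1 (0.0730) or sKO library 2 (0.120). A gene is named called here where its adjusted p was under 0.05. Summed levels of 16 pachytene spermatocyte markers ranged from 769 to 1529 CPM in WT and from 344 to 531 CPM in sKO, and edgeR called 4 of 13 tested markers lower, where it called 1.27% of all genes lower. Those of 16 early prophase markers ranged from 1678 to 2690 and from 1256 to 1951 CPM, ranges that overlapped, with 1 called lower by edgeR. DESeq2 called 9 and 3 members of these lists lower and limma-voom 0 of either, and their median log2 fold changes were -1.41 and -0.52. None of the undifferentiated and differentiating spermatogonia markers was called by edgeR, DESeq2 or limma-voom (median 0.20 and 0.067). Summed levels of 15 Sertoli cell markers ranged from 5539 to 6412 CPM in WT and from 6749 to 8071 CPM in sKO, with 8 higher at an unadjusted p under 0.05, where 5.06% of all genes were. Median log2 fold changes were 0.24 for Sertoli, 0.27 for Leydig, 0.29 for myoid, 0.37 for macrophage and 0.25 for endothelial markers. Of these 5 lists 0 members were called by any of the 3 tools. Lymphocyte and red blood cell markers, with 3 and 5 genes tested, had medians in the other direction, at -0.12 and -0.29. No marker of the pachytene, early prophase or Sertoli lists was at 0 in all libraries. Of 11 lymphocyte markers 3 were expressed enough to be tested, and the list summed to 8.33 to 12.0 CPM, with 48 to 102 counts of the T cell gene Cd3e and at most 4 and 2 counts of the recombinase genes Rag1 and Rag2 per library. Library 1 of sKO stood apart in 10 epididymis markers, which summed to 229 CPM there and to 3.51 to 28.1 CPM in the other 5 libraries. The part of these cell type differences in the results below was not tested.

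The question asked of the end joining genes was whether their transcripts differ when germ cells lack Rif1. Of the 10 genes edgeR called 0 lower and 0 higher at an adjusted p under 0.05, where 1.30% of all genes tested were called. At an unadjusted p under 0.05, 2 were lower (Lig3 and Nhej1) and 0 higher, where 8.54% and 5.06% of all genes (13.6% in all) were. DESeq2 called 1 lower (Lig3), where it called 3.41% of genes with an adjusted p, and limma-voom called 0, as it did over all genes, with the same 2 lower at an unadjusted p under 0.05. In 3 of the 10 (Lig3, Nhej1 and Polq) every sKO library lay below every WT library and in 0 above, where this held for 10.7% and 9.58% of all genes (20.2% in either direction). Estimates were lower for 7 genes and higher for 3, against 44.7% and 55.3% of all genes tested. All were small. Log2 fold changes ran from -0.38 for Lig3 to 0.30 for Paxx, and the 95% interval of every one of the 10 lay inside a 2-fold difference in either direction, the lowest bound being -0.65 and the highest 0.68. Such narrow intervals were found for 77.0% of all genes tested.

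**Figure D1:**
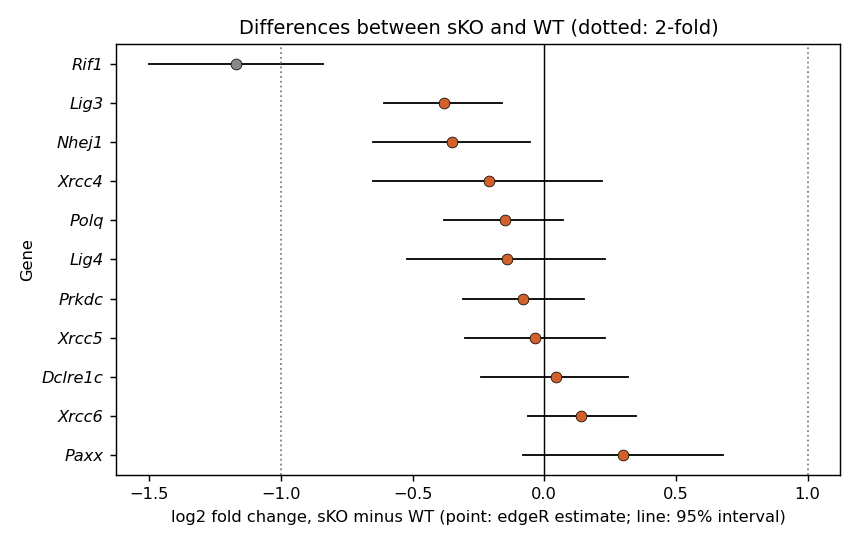
Log2 fold change of sKO minus WT (x axis) for Rif1 and the 10 end joining genes (y axis); points are edgeR estimates over 3 WT and 3 sKO libraries, lines are 95% intervals and dotted lines mark a 2-fold difference. Only the intervals of Rif1, Lig3 and Nhej1 exclude 0, and those of the 10 end joining genes lie between -0.65 and 0.68.

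Levels of different genes were compared as CPM per kilobase (kb) of exon sequence, with exon lengths taken from a GENCODE annotation of GRCm38. In WT the genes fell into a high and a low set. Lig3 (20.5 ± 2.06 CPM per kb), Nhej1 (19.6 ± 0.265), Xrcc5 (18.9 ± 2.72) and Xrcc6 (18.8 ± 0.926; SD, n = 3 each) formed the high set, and the ranges of neighbours in that order overlapped. The low set ran from Dclre1c (6.66 ± 0.967 CPM per kb) through Paxx, Prkdc, Xrcc4 and Polq to Lig4 (3.52 ± 0.741; SD, n = 3 each), again with overlapping neighbours. The range of Xrcc6 did not reach that of Dclre1c. In sKO the members of both sets were the same. In the low set only Xrcc4 and Polq, whose ranges overlapped in both groups, changed places, while the order inside the high set differed more. Xrcc6 stood first at 20.7 ± 1.32 and Xrcc5 next at 18.4 ± 0.669 CPM per kb, and Lig3 and Nhej1 followed at 15.7 ± 1.07 and 15.4 ± 2.04 (SD, n = 3 each). The sKO ranges of Xrcc6, Xrcc5 and Lig3 did not overlap each other, while those of Lig3 and Nhej1 did. Exon lengths count every annotated isoform, so the level of a gene that uses short isoforms is understated.

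**Figure D2:**
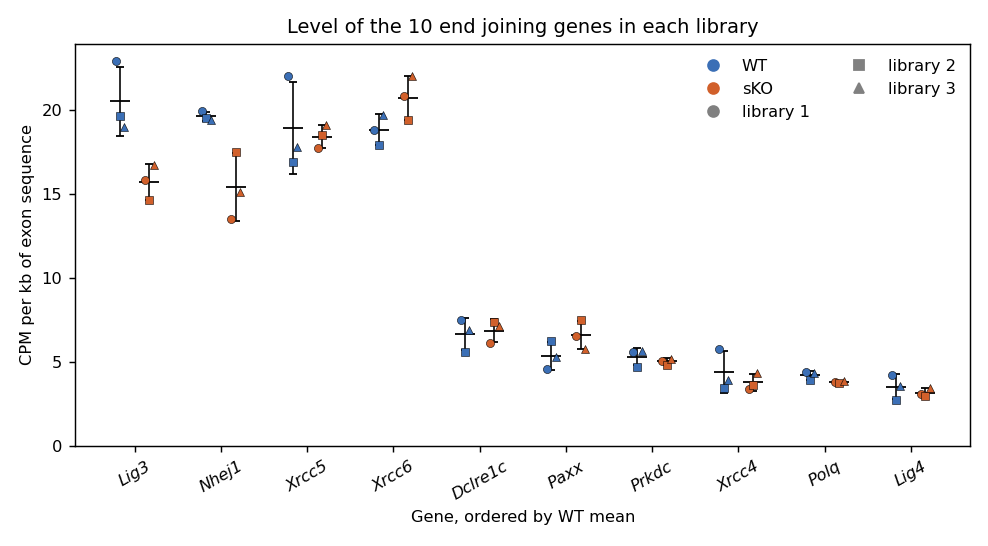
Level in CPM per kb of exon sequence (y axis, from 0) of the 10 end joining genes (x axis, ordered by WT mean), with 1 point per library (blue WT, orange sKO) and bars for the mean and SD of 3 libraries. Lig3, Nhej1, Xrcc5 and Xrcc6 lie well above the other 6 genes in both groups, and Lig3, Nhej1 and, narrowly, Polq have separate WT and sKO points.

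The largest estimate belonged to Lig3, on mouse chromosome 11, which encodes the ligase of the alternative route. The same gene supplies the ligase of mitochondrial DNA and of single-strand break repair, and in mouse a splice form that lacks the XRCC1-binding domain is known from spermatocytes. Lig3 stood at 167, 143 and 139 CPM in WT libraries 1 to 3 and at 115, 106 and 122 CPM in sKO libraries 1 to 3. All 3 sKO libraries lay below all 3 WT libraries. The mean was 149 ± 15.0 CPM for WT and 114 ± 7.80 CPM for sKO (SD, n = 3 each), a log2 fold change of -0.38 (SE 0.10, 95% interval -0.61 to -0.16), which missed the threshold (edgeR adjusted p = 0.0976). The exact permutation test of 3 against 3 libraries, two-sided, gave p = 0.1, the smallest that the design allows. The call depended on the method. The adjusted p was 0.0320 with DESeq2, 0.0157 with edgeR without the filter on low counts and 0.0480 without sKO library 3, and it ranged up to 0.466 among the other alternatives, with log2 fold changes from -0.47 to -0.30 over all of them.

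Within the WT group Lig3 was highest in library 1, where the pachytene and early prophase markers were also highest (1529 and 2690 CPM summed). Within the sKO group it was highest in library 3, where they were again highest (531 and 1951 CPM). Across the groups the order of the early prophase sums differed from that of Lig3. Early prophase markers summed to 1678 and 1861 CPM in WT libraries 2 and 3, less than in sKO library 3. Lig3 stood at 143 and 139 CPM in those WT libraries and at 122 CPM in sKO library 3. Pachytene sums, like Lig3, were higher in every WT library (769 to 1529 CPM) than in every sKO library (344 to 531 CPM). Inside the sKO group they were 344 and 379 CPM in libraries 1 and 2, where Lig3 stood at 115 and 106 CPM. These orders were not tested. Sycp3, a synaptonemal complex protein that marks meiotic prophase, had 466 CPM in WT library 1 and 335 CPM in sKO library 3, against 168 to 273 CPM in the other libraries. Sycp3 had a log2 fold change of -0.50 (edgeR adjusted p = 0.632), beside -0.38 for Lig3 and a median of -0.52 for the early prophase list. Estimates in that list ran from -1.04 to 0.17. Its member Spo11, with groups that did not overlap, had -0.99 (edgeR adjusted p = 0.0253). Ldhc, a lactate dehydrogenase of germ cells and the pachytene marker with the lowest estimate, had 127, 68.3 and 35.2 CPM in WT libraries 1 to 3 and 2.28, 3.87 and 6.64 CPM in sKO libraries 1 to 3, a difference that missed the threshold (log2 fold change -4.16, edgeR adjusted p = 0.0658). Counts per gene do not separate the splice forms of Lig3. In the annotation 25.1% of its exon bases are shared with Rffl, a ubiquitin ligase gene on the opposite strand, whose level was 41.3 ± 2.39 CPM in the WT group and 41.8 ± 5.16 CPM in the sKO group (SD, n = 3 each; adjusted p = 0.960 with edgeR). Whether counting used the strand is not stated, so reads from the shared part cannot be told apart.

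Nhej1 on chromosome 1, which encodes XLF, had the next largest lower estimate. It stood at 22.3, 21.8 and 21.7 CPM in WT libraries 1 to 3 and at 15.0, 19.6 and 16.9 CPM in sKO libraries 1 to 3. The WT libraries were almost level (SD 1.35% of the mean), the sKO libraries spread more widely (13.3%), and the groups did not overlap. At 350 to 398 counts per WT library counting error alone gives a wider spread, so the closeness of WT is not read as a trait. The log2 fold change was -0.35 (SE 0.14, 95% interval -0.65 to -0.053, edgeR adjusted p = 0.271), and no alternative brought it past the threshold (adjusted p 0.249 to 0.757). Without sKO library 1, the lowest of the 6, the estimate was -0.26. Paxx on chromosome 2, whose product shares the fold and the end-holding role of XLF, had the largest higher estimate. It stood at 9.46, 12.9 and 10.9 CPM in WT libraries 1 to 3 and at 13.5, 15.5 and 12.0 CPM in sKO libraries 1 to 3. The lowest sKO library lay below the highest WT library, and the log2 fold change was 0.30 (SE 0.17, 95% interval -0.081 to 0.68, edgeR adjusted p = 0.492). Paxx had the lowest mean CPM of the 10 genes in both groups, with 169 to 256 counts per library.

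The counts of Nhej1 were divided by those of Paxx inside each library, a ratio that does not depend on library scaling. It was 2.36, 1.69 and 1.99 for WT libraries 1 to 3 and 1.12, 1.27 and 1.41 for sKO libraries 1 to 3, so the highest sKO ratio lay below the lowest WT ratio. The mean log2 ratio was 1.0 ± 0.24 in WT and 0.33 ± 0.17 in sKO (SD, n = 3 each), a difference of -0.66 (exact two-sided permutation p = 0.1, the smallest possible; Benjamini-Hochberg adjusted p = 0.300 over the 6 ratios computed). Leaving out 1 library at a time gave -0.78 to -0.54. The ratio restates the opposite estimates of Nhej1 and Paxx, and the tests were chosen with earlier results known. It is therefore not separate support for either estimate. The count ratio of Lig3 to Lig4, the ligases of the alternative and the classical route, was 7.55, 9.97 and 7.47 for WT libraries 1 to 3 and 7.13, 6.87 and 6.74 for sKO libraries 1 to 3. These groups also did not overlap, with a log2 difference of -0.26 (exact two-sided permutation p = 0.1, adjusted p = 0.300), which was -0.12 without WT library 2. The ratio of Lig3 to Lig4 likewise restates the estimates of the 2 genes (-0.38 and -0.14) and is not separate support for either.

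The promoters of Lig3, Nhej1 and Paxx are printed because these 3 genes lay farthest from no difference. They are RefSeq promoters of build GRCm38.p6, from 250 bases before to 50 bases after the annotated start, read 5′ to 3′ on the strand of the gene. Capitals mark the letters of any of 8 motifs searched on both strands, namely the GC box GGGCGG, the NF-Y motif CCAAT, the ETS motif CCGGAAG, the E box CACGTG, the NRF1 core TGCGCA, the CRE TGACGTCA, the E2F motif TTCCCGC and the MYB motif TAACNG, and adjoining or overlapping matches appear as 1 run. The Lig3 promoter lies at chr11:82780859-82781158 on the plus strand, the Nhej1 promoter at chr1:75125177-75125476 on the minus strand and the Paxx promoter at chr2:25461045-25461344 on the minus strand.
Lig3: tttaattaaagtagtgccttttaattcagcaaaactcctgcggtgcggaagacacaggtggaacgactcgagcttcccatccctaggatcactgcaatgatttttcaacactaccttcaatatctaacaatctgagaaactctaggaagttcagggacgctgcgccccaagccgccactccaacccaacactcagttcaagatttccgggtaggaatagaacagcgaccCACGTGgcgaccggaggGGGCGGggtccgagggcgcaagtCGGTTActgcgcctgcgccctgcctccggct
Nhej1: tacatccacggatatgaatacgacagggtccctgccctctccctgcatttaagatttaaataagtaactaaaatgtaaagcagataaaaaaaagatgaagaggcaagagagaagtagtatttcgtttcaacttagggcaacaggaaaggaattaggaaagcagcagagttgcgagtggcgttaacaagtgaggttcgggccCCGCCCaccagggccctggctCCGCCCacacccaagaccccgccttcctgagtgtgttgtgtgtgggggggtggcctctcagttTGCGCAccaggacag
Paxx: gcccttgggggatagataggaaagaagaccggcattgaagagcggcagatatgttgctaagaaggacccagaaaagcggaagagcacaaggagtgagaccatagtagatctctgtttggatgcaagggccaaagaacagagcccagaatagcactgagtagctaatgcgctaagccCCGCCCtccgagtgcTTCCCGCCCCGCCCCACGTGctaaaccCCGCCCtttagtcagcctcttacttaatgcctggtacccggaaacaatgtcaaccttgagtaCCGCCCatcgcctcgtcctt

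All 3 promoters hold a GC box, as do 7 of the 9 end joining genes with a promoter in the table and 35.7% of all 32851 promoters there. Here and below a gene counts if any of its promoters holds the motif, while the share of all promoters counts each promoter. Lig4 is listed with a further promoter that holds no GC box, so the shares are not in the same unit. The Paxx promoter holds 5 GC boxes, the most of the 3. Lig3 and Paxx each hold an E box, found in 3 of the 9 genes and 7.15% of all promoters. Lig3 also holds a MYB motif (3 of 9 genes, 23.3% of all promoters), and Nhej1 an NRF1 core (4 of 9 genes, 7.76%). The E2F motif of the Paxx promoter was found in 4 of the 9 genes and 4.60% of all promoters, and the ETS motif, in none of the 3 printed, in 4 of 9 genes and 8.86%. The NF-Y motif was in 3 of 9 genes and 37.4% of all promoters, and the CRE in 0 of 9 and 1.79%. These matches describe letters in a window and were not compared with binding data.

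The Ku subunits, which bind ends as a heterodimer, differed little between the groups. Xrcc6 on chromosome 15 stood at 84.3, 80.0 and 88.3 CPM in WT libraries 1 to 3 and at 93.2, 86.8 and 98.5 CPM in sKO libraries 1 to 3, with groups that overlapped (log2 fold change 0.14, 95% interval -0.063 to 0.35, edgeR adjusted p = 0.547). Xrcc5 on chromosome 1 stood at 56.1, 43.2 and 45.4 CPM in WT and at 45.3, 47.3 and 48.7 CPM in sKO libraries 1 to 3, where WT library 1 was the highest of the 6 and the others lay close together (log2 fold change -0.034, 95% interval -0.30 to 0.23, edgeR adjusted p = 0.928). Without WT library 1 the estimate for Xrcc5 was 0.09. The count ratio of Xrcc6 to Xrcc5 was 1.5 in WT library 1 and 1.84 to 2.06 in the other 5 libraries. Its log2 difference between the groups was 0.17 (exact two-sided permutation p = 0.300, adjusted p = 0.360), and 0.052 without WT library 1. Xrcc6 shares 7.69% of its exon bases with Desi1 on the opposite strand, so its counts carry the same limit as those of Lig3.

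Prkdc and Dclre1c, which encode the kinase and the nuclease that it activates, were as level. Prkdc on chromosome 16 stood at 73.6, 62.3 and 74.7 CPM in WT libraries 1 to 3 and at 67.0, 63.6 and 68.5 CPM in sKO libraries 1 to 3, all 3 of the latter inside the WT range (log2 fold change -0.08, 95% interval -0.31 to 0.15, edgeR adjusted p = 0.780). Dclre1c on chromosome 2 stood at 69.6, 52.0 and 64.4 CPM in WT and at 56.8, 68.6 and 66.3 CPM in sKO libraries 1 to 3, again inside the WT range (log2 fold change 0.044, 95% interval -0.24 to 0.32, edgeR adjusted p = 0.915). Dclre1c shares 3.83% of its exon bases with Suv39h2, a histone methyltransferase gene on the opposite strand.

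Xrcc4 and Lig4, whose products form 1 complex, were the genes in which WT library 1 stood out most. Xrcc4 on chromosome 13 stood at 24.4, 14.5 and 16.5 CPM in WT libraries 1 to 3 and at 14.3, 15.3 and 18.2 CPM in sKO libraries 1 to 3, and Lig4 on chromosome 8 at 22.0, 14.3 and 18.6 CPM and at 16.2, 15.5 and 18.1 CPM. In each group Xrcc4 was highest in the library with the highest early prophase markers, WT library 1 and sKO library 3, and Lig4 followed the same pattern. The log2 fold changes were -0.21 (95% interval -0.65 to 0.22, edgeR adjusted p = 0.682) for Xrcc4 and -0.14 (95% interval -0.52 to 0.23, edgeR adjusted p = 0.759) for Lig4. Both estimates changed sign without WT library 1, to 0.039 and 0.012. The count ratio of Lig4 to Xrcc4 lay between 0.904 and 1.13 in all 6 libraries, and its log2 difference between the groups was 0.06 (exact two-sided permutation p = 0.5, adjusted p = 0.5). Xrcc4 shares 2.66% of its exon bases with Tmem167 on the opposite strand, whose WT mean was 51.0 CPM. Counts of Xrcc4 therefore carry the same limit as those of Lig3.

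Polq on chromosome 16, the polymerase of the alternative route, stood at 42.4, 37.7 and 41.9 CPM in WT libraries 1 to 3 and at 36.7, 36.1 and 37.1 CPM in sKO libraries 1 to 3. The groups did not overlap, but the highest sKO library and the lowest WT library were less than 1 CPM apart. The sKO libraries were close to each other (SD 1.47% of the mean), and the log2 fold change was -0.15 (SE 0.10, 95% interval -0.38 to 0.072, edgeR adjusted p = 0.554). This sKO spread is also narrower than counting error alone gives at 597 to 677 counts per sKO library. Set against Prkdc in the same library, the count ratio of Polq was 0.576, 0.606 and 0.562 in WT and 0.547, 0.567 and 0.542 in sKO libraries 1 to 3. These ranges overlapped, with a log2 difference of -0.074 (exact two-sided permutation p = 0.200, adjusted p = 0.300).

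By library, WT library 1 held the highest value of 7 of the 10 genes, Lig3, Nhej1, Xrcc4, Lig4, Xrcc5, Dclre1c and Polq, and the lowest value of Paxx. WT library 2 held the lowest value of 5, Xrcc5, Xrcc6, Prkdc, Dclre1c and Lig4. The median of the 10 genes relative to their WT mean was, on the log2 scale, 0.11, -0.13 and 0.0022 for WT libraries 1 to 3 and -0.14, -0.15 and -0.021 for sKO libraries 1 to 3, so sKO libraries 1 and 2 lay just below the lowest WT library and sKO library 3 lay inside the WT range. Early prophase markers were likewise highest in WT library 1 and, within sKO, in library 3, with list medians of 0.35, -0.23 and -0.14 for WT libraries 1 to 3 and -0.61, -0.63 and -0.08 for sKO libraries 1 to 3.

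**Figure D3:**
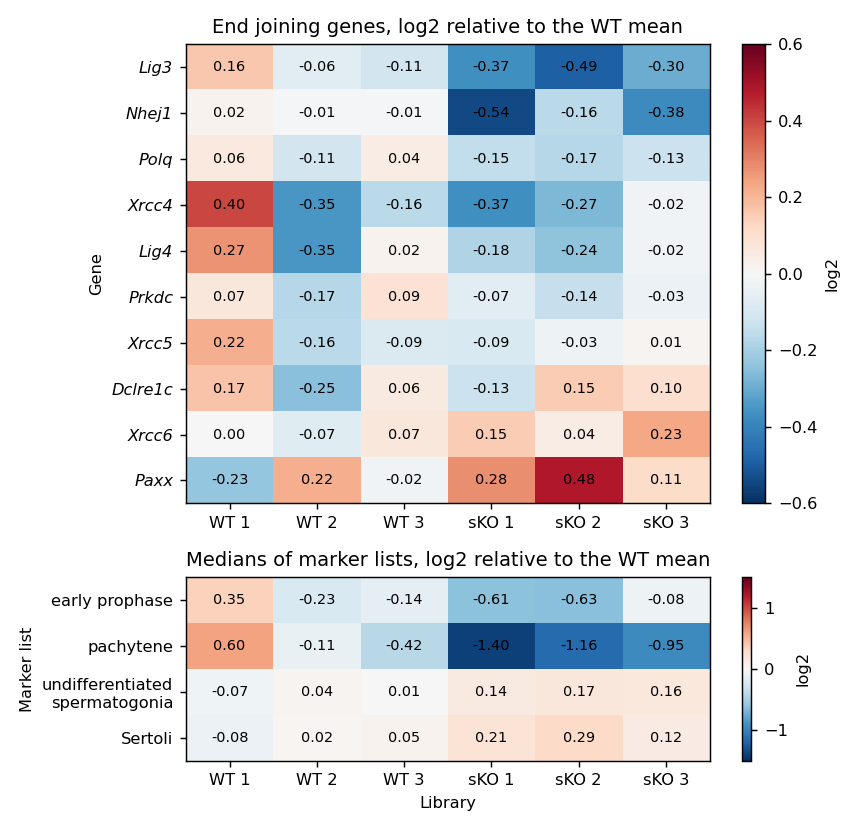
Log2 level relative to the WT mean (colour and printed value) in each of the 6 libraries (x axis) for the 10 end joining genes (upper panel) and for the medians of 4 marker lists (lower panel, on a wider colour scale). Lig3 is lower in all 3 sKO libraries, Xrcc4 and Lig4 are highest in WT library 1, and pachytene markers range from 0.60 in WT library 1 to -1.40 in sKO library 1.

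The start sites of 4 of the genes lie within 1000 bases of the start of a gene on the opposite strand, and the values of these neighbours are given beside theirs. Mcm4, a subunit of the replicative helicase next to Prkdc, had 90.3 ± 4.10 CPM in the WT group and 99.5 ± 5.59 CPM in the sKO group (SD, n = 3 each; log2 fold change 0.14, edgeR adjusted p = 0.540). Abhd13, next to Lig4, and Tmem167, next to Xrcc4, had log2 fold changes of 0.15 and 0.059 (edgeR adjusted p = 0.571 and 0.860), each above the estimate of its partner. The antisense transcript Gm11423, next to Lig3, had 7.37 ± 0.893 CPM in the WT group and 7.33 ± 0.923 CPM in the sKO group (SD, n = 3 each; adjusted p = 0.992 with edgeR). Differences between a gene and its neighbour were not tested.

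The proteins that work with the end joining genes were read from 2 lists. Of 11 factors accessory to classical end joining, such as end-processing enzymes and gap-filling polymerases, 10 were tested and edgeR called 0. DESeq2 and limma-voom also called 0, and 1 gene was higher and 0 lower at an unadjusted p under 0.05. The list median was a log2 fold change of 0.0075, against -0.11 for the 10 end joining genes and 0.032 for all genes tested. The 1 higher gene was Polm, a gap-filling polymerase, which stood at 15.9, 19.0 and 15.5 CPM in WT libraries 1 to 3 and at 20.5, 21.7 and 20.7 CPM in sKO libraries 1 to 3 (log2 fold change 0.32, 95% interval 0.022 to 0.61, edgeR adjusted p = 0.327). Its relative Poll had an estimate in the other direction, at -0.25 (edgeR adjusted p = 0.504). Tdp1, which encodes an end-cleaning enzyme, had a log2 fold change of -0.12 (edgeR adjusted p = 0.601). Dntt, the template-free polymerase of lymphocytes, had 0 counts in all 6 libraries.

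Of 23 partners of alternative end joining and single-strand break repair, edgeR, DESeq2 and limma-voom called 0, and 0 had an edgeR unadjusted p under 0.05. The list median was -0.05, with estimates from -0.22 to 0.35. The smallest p belonged to Apex2, an abasic endonuclease gene on the X chromosome (0.35, edgeR adjusted p = 0.405), and after it came the flap nuclease subunit Ercc1 (-0.22, 0.433), the gap-filling polymerase Polb (-0.21, 0.459) and the exonuclease Exo1 (0.16, 0.485). Xrcc1, the scaffold that binds LIG3, had 68.4 ± 6.69 CPM in the WT group and 65.5 ± 1.92 CPM in the sKO group (SD, n = 3 each; log2 fold change -0.063, 95% interval -0.29 to 0.16, edgeR adjusted p = 0.833). The count ratio of Lig3 to Xrcc1 was 2.64, 1.88 and 2.09 for WT libraries 1 to 3 and 1.76, 1.58 and 1.92 for sKO libraries 1 to 3, with a log2 difference of -0.32 (exact two-sided permutation p = 0.200, adjusted p = 0.300), and -0.19 without WT library 1. Lig1, the replicative ligase, had 170 ± 13.3 CPM in the WT group and 182 ± 2.66 CPM in the sKO group (SD, n = 3 each; log2 fold change 0.094, 95% interval -0.10 to 0.29, edgeR adjusted p = 0.697), so of the 3 DNA ligase genes only Lig3 had an interval that excluded 0, and the differences among the 3 estimates were not tested beyond the ratio to Lig4.

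**Figure D4:**
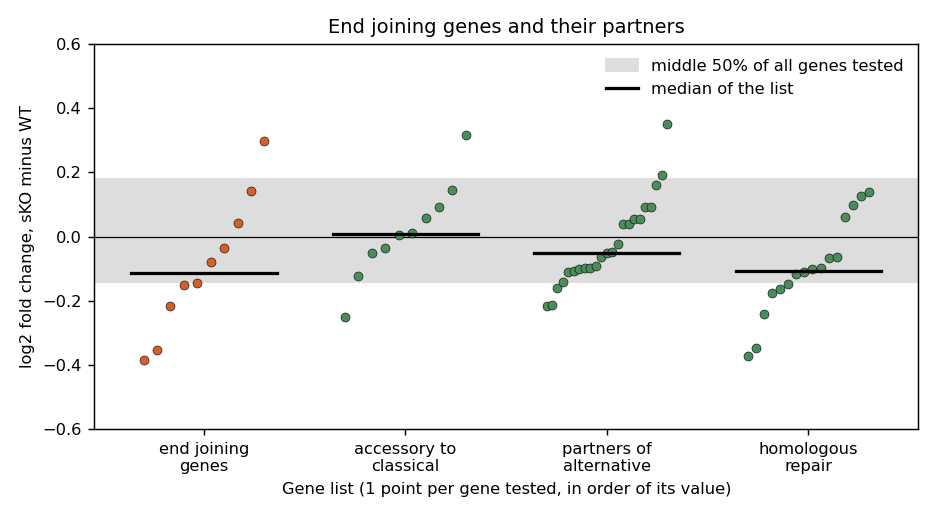
Log2 fold change of sKO minus WT (y axis) for each gene tested in 4 lists (x axis), with the list median as a bar and the middle 50% of all genes tested as a grey band. The 10 end joining genes have a median of -0.11, near the -0.11 of 16 homologous repair genes. Lig3 and Nhej1 lie lowest among the 10 end joining genes, and the homologous repair genes Rad54b and Xrcc2 lie at -0.37 and -0.35.

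Parp1, the break-sensing polymerase that acts early in the alternative route, varied widely within the groups, with an SD of 34.0% of the WT mean against 28.3% for Xrcc4, the most variable of the 10 end joining genes in WT. It stood at 194, 398 and 350 CPM in WT libraries 1 to 3 and at 375, 380 and 222 CPM in sKO libraries 1 to 3. The lowest libraries were WT library 1 and sKO library 3, the same libraries in which Sycp3 and the early prophase markers were highest, and the group means of 314 ± 107 and 326 ± 89.8 CPM (SD, n = 3 each) were close beside that spread (log2 fold change 0.054, 95% interval -0.72 to 0.83, edgeR adjusted p = 0.960). The part of cell composition in this spread was not tested. Over 16 homologous repair genes, used as a comparison list, edgeR, DESeq2 and limma-voom called 0, with 1 lower at an unadjusted p under 0.05, and the median log2 fold change was -0.11.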

How the data were processed

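Testis poly(A) RNA of 3 WT and 3 sKO samples was measured. The authors deposited 1 table of unnormalized read counts by gene symbol. Per the submitters' processing notes the authors used Trim Galore, HISAT2 and featureCounts with build mm39; versions, annotation, strandedness and the handling of multi-mapping reads were not found in the labels. Columns named con and scKO were read as WT and sKO and matched by number. No pair of libraries within a group agreed within counting error (chi-square of 4.45 to 20.2 for each degree of freedom), so none was merged; this does not show that they came from separate animals.

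Counts were tested with edgeR 4.0.16 in R 4.3.3 (filterByExpr, TMM, robust quasi-likelihood F test, no covariates, Benjamini-Hochberg over 18860 genes; called means adjusted p under 0.05). SEs and 95% intervals came from the F statistic. DESeq2 1.42.0, limma-voom (limma 3.58.1), other scalings, no filter, omitted libraries and a replicate block were alternatives. Ratios were tested with SciPy 1.17.1. Exon lengths, strands and overlaps came from GENCODE M21 and chromosomes and promoters from RefSeq, both of GRCm38, so no mm39 coordinates are given. RefSeq promoters were found for 9 of the 10 genes. The members, lists and tests were chosen with earlier results of these data known. Named beside the members were Rif1, every listed partner with an unadjusted p under 0.05 and the 4 with the smallest p per partner list, direct partners, and defining markers. One result under this rule is not reported here.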

Additional observations from a re-analysis of the deposited data

How the results depend on the processing

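Over 13 alternatives each, the log2 fold changes of the 10 end joining genes gave 130 values, of which 118 kept direction and side of the threshold, 3 brought Lig3 past it and 9 changed sign, and 6 of the 10 genes kept their direction throughout. The sign changes were small. Without both libraries numbered 1 the estimates were 0.10 for Xrcc5, 0.10 for Xrcc4 and 0.016 for Lig4. Leaving out 1 library gave ranges of -0.11 to 0.09 for Xrcc5, -0.36 to 0.039 for Xrcc4, -0.29 to 0.012 for Lig4 and -0.067 to 0.14 for Dclre1c, and -0.014 to 0.14 for the ratio of Lig4 to Xrcc4. The end joining genes called lower numbered 0 with edgeR, 1 without the low-count filter, 1 with DESeq2 and 0 to 1 when a library was left out, and those called higher numbered 0 throughout; at an unadjusted p under 0.05 there were 1 or 2 lower and 0 or 1 higher.

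Calls over all genes were less stable. Against 240 lower and 6 higher, there were 992 and 154 without the filter, 711 and 56 with DESeq2, 0 and 0 with limma-voom (1598 and 931 at an unadjusted p under 0.05), 155 lower without both libraries numbered 1, and 0 to 624 lower and 0 to 31 higher when 1 library was left out. The replicate block gave 21 lower and 0 higher (1325 and 605 at an unadjusted p under 0.05). Deviations of same-numbered libraries correlated at -0.342, 0.12 and -0.276, so the numbers were not taken to pair the samples. Rif1 had log2 fold changes of -1.14 with limma-voom and of -1.30 to -0.97 when 1 library was left out. The causes of these shifts were not tested. With 3 libraries a group, exact tests cannot go below p = 0.1, and the intervals leave room for differences of up to 0.68 (log2) in Paxx.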
